A study of Homo sapiens with 19 samples.

Results

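The genes described here are 41 genes of the antiviral response of human cells, of 34825 gene symbols measured in HepG2, a liver cancer cell line. They were chosen by name and known role, by a rule that used no measured value, but with earlier results of these data known. They comprise 7 RNA sensors with their adapter, 4 transcription factors, 9 effectors of the OAS, MX and RSAD2 kind, 4 IFIT genes, 4 genes of the IFITM family with BST2, 5 genes of the ISG15 system and of ubiquitin ligases, PARP9 and PARP14, and 6 other interferon-induced genes. HepG2 cells were transfected with 50 nM siRNA and harvested after 72 h, and stranded mRNA libraries were sequenced. In the INO80 experiment the siRNAs were a control (NTG), siINO80#1 or siINO80#2, the latter pair directed at INO80, the ATPase of a chromatin remodeling complex, with 3 libraries each lettered A, B and C. In the drug experiment, cells received DMSO or 1 μM EPZ-6438, which blocks EZH2, the enzyme that methylates histone H3 at K27, from 3 days before transfection with NTG or with siMCRS1, an siRNA against the INO80 complex subunit MCRS1. That experiment has 2 libraries of DMSO with NTG, 3 of DMSO with siMCRS1, 3 of EPZ-6438 with NTG and 2 of EPZ-6438 with siMCRS1. All groups are the same line, all received an siRNA, and no untransfected group was analysed. A single control siRNA served all comparisons, and MCRS1 was targeted by 1 siRNA, so the effect of a target and that of its siRNA cannot be told apart for MCRS1.

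Depth was 17093574 to 25369547 reads per INO80 library and 26038505 to 47397233 per drug library. Values are normalized counts, scaled separately in each experiment, and are listed in the order A, B, C, or, in the drug experiment, in the order of the table's columns. A gene was tested in an experiment where its mean over all libraries was at least 10, which 34 of the 41 genes passed in each experiment and 33 in both. It was called where limma's adjusted p on log2(normalized count + 1) was under 0.05. INO80 had 1278, 1338 and 1175 normalized counts in NTG, 576, 639 and 609 in siINO80#1 and 439.8, 456 and 483 in siINO80#2, with a log2 fold change of -1.05 and -1.46. MCRS1 had 1577 and 1283 in DMSO with NTG, 140.2, 83.7 and 119 in DMSO with siMCRS1, 1533, 1355 and 1201 in EPZ-6438 with NTG and 126 and 90.5 in EPZ-6438 with siMCRS1, with a log2 fold change of -3.66 in DMSO and -3.66 in EPZ-6438. With siMCRS1, INO80 was also lower (-0.27 (adjusted p = 0.039) in DMSO and -0.35 (adjusted p = 0.0097) in EPZ-6438, as log2 fold changes). All 9 hepatocyte markers were above 0 in every group and summed to 578951 to 1322059 normalized counts per library. Of them, 5 were called lower with siINO80#2, where 28.4% of all tested genes were lower. In the other knockdowns, 1 was lower with siINO80#1, 1 lower with siMCRS1 in DMSO, and 1 higher and 1 lower with siMCRS1 in EPZ-6438. Among immune markers CD3E was at 0 to 3.23 normalized counts, while LYZ was at 35876 to 68408. The 5 fibroblast markers summed to 257 to 281 in NTG, 463 to 485 in siINO80#1 and 287 to 311 in siINO80#2, and to 339 to 362 in DMSO with NTG, 552 to 907 in DMSO with siMCRS1, 203 to 370 in EPZ-6438 with NTG and 794 to 852 in EPZ-6438 with siMCRS1. The part of these markers in the results on antiviral genes was not tested. In bulk libraries, fewer cells that express a gene and less RNA of it per cell cannot be told apart.

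Cells detect viral RNA in the cytoplasm with the helicases RIG-I (DDX58) and MDA5 (IFIH1), which signal through the mitochondrial adapter MAVS to induce interferon. Secreted interferon acts through its receptors and JAK kinases on ISGF3, a complex that includes STAT2 and IRF9 and binds interferon-stimulated response elements (ISREs) in the promoters of antiviral genes. Several sensors and factors are themselves interferon-induced, and hepatocytes are a host of RNA viruses that this system meets.

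The promoters of the genes called in the same direction with both INO80 siRNAs and with siMCRS1 in both treatments are shown, because no other genes of the group had that call, with that of TLR3, which is described under EPZ-6438. USP18, which was called alike, has no entry. Each runs from 250 bases before to 50 after a RefSeq transcript start on GRCh38.p14, 5′ to 3′, with matches to the ISRE core GAAANNGAAA on either strand in capitals.
IFIH1, chr2:162318635-162318934 (minus strand): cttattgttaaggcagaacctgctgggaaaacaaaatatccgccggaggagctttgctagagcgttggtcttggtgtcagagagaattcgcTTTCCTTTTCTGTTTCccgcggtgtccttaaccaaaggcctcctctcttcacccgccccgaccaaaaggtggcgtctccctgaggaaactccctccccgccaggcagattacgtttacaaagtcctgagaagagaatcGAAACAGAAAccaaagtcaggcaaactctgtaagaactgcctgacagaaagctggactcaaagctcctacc
IFIT3, chr10:89327747-89328046 (plus strand): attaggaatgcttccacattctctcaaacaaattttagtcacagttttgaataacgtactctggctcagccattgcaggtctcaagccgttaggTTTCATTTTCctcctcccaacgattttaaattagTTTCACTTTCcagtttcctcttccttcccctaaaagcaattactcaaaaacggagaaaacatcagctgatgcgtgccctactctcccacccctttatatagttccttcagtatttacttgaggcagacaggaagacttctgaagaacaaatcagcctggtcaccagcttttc
IFITM3, chr11:320811-321110 (minus strand): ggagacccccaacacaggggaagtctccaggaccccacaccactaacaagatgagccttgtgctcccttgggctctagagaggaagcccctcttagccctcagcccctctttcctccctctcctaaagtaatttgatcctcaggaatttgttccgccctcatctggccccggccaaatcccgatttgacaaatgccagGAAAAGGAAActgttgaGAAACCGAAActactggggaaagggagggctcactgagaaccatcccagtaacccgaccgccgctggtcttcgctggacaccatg
IFI35, chr17:43006534-43006833 (plus strand): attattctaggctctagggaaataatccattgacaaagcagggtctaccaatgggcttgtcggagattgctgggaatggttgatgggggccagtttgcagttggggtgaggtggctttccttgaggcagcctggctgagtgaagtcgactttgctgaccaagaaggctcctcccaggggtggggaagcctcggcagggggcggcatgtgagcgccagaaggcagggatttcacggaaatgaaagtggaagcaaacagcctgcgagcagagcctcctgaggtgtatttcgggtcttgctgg
IRF9, chr14:24161015-24161314 (plus strand): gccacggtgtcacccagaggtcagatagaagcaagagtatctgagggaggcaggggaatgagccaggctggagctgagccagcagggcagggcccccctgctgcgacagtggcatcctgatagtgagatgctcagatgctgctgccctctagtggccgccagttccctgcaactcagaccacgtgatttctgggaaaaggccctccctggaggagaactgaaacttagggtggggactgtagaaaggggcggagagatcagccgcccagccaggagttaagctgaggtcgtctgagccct
TLR3, chr4:186068906-186069205 (plus strand): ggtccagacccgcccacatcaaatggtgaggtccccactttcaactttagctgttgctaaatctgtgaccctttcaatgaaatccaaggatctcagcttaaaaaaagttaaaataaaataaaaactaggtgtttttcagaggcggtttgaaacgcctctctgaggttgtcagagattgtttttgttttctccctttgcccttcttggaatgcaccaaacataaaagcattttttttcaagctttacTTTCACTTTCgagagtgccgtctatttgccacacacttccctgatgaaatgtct
The IFIH1 window held 3 matches, with their first bases 159, 153 and 21 before the start, the first pair overlapping. The IFIT3 window shown held 2 (156 and 122 before), IFITM3 held 2 (52 and 35 before) and TLR3 held 1 (4 before), while these letters were not in the windows of IFI35 and IRF9. Another IFIT3 window, not shown, held 2 further matches (94 and 51 before its start). Of the 33 genes with a window, 21 (63.6%) held the ISRE core in any of their windows, against 4.38% of 27305 genes with a window. GAS, the element TTCNNNGAA on both strands, was in the windows of 10 of the 33 (30.3%), IRF9 and IFI35 among them, against 9.38% of genes. A window can hold both. A match describes a sequence and does not show binding.

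In the INO80 experiment the response of the group was mixed. With siINO80#1, 8 genes were higher and 5 lower, 13 of 34 (38.2%), where 41.6% of all 14034 tested genes were called, 20.7% higher and 20.8% lower. With siINO80#2, 12 were higher and 8 lower, 20 of 34 (58.8%), where 55.0% of all genes were called, 26.6% higher and 28.4% lower. The shares lay near those of all genes in both, and the median log2 fold change was 0.03 and 0.16. Both comparisons use the same 3 NTG libraries. In siINO80#2 against siINO80#1, 8 were higher and 3 lower (11 of 34), where 22.1% of all genes were called, 9.48% higher and 12.6% lower. The count of 11 fell to 7 without any one of siINO80#1 replicates A, B or C.

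With siMCRS1 the called genes were mostly lower. In DMSO, 3 were higher and 16 lower (19 of 34, 55.9%), where 47.7% of all 14312 tested genes were called, 23.1% higher and 24.6% lower. In EPZ-6438, 4 were higher and 19 lower (23 of 34, 67.6%), where 53.7% of all genes were called, 26.8% higher and 26.9% lower. The share of the group that was lower was 47.1% in DMSO and 55.9% in EPZ-6438, and the median log2 fold change was -0.44 and -0.75, where that of all genes was 0.00 and 0.01. With libraries rescaled to equal totals, which moves the median of all genes by -0.23, 1 was higher and 19 lower in DMSO and 1 higher and 22 lower in EPZ-6438, and IRF9 was the gene that was higher in both. With quantile normalization the DMSO median was -0.25, and without EPZ-6438 siMCRS1 replicate B the EPZ-6438 median was -0.45. Without TLR3, which passed the filter through 1 group, 15 of 33 were lower in DMSO and 18 of 33 in EPZ-6438, and without CMPK2, for the same reason, 7 of 33 were lower with siINO80#2. In all, 6 genes were called alike in all 4 knockdown comparisons: IRF9 and IFITM3 were higher, and IFIH1, IFIT3, IFI35 and USP18 were lower. These are 6.06% and 12.1% of the 33 genes tested in both experiments, where 11.4% of all 13534 genes were higher in all 4 and 11.4% lower. The calls of IRF9, IFIT3 and IFI35 held in all 4 under every alternative setting run, and those of the other 3 are qualified where the gene is described.

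**Figure D1:**
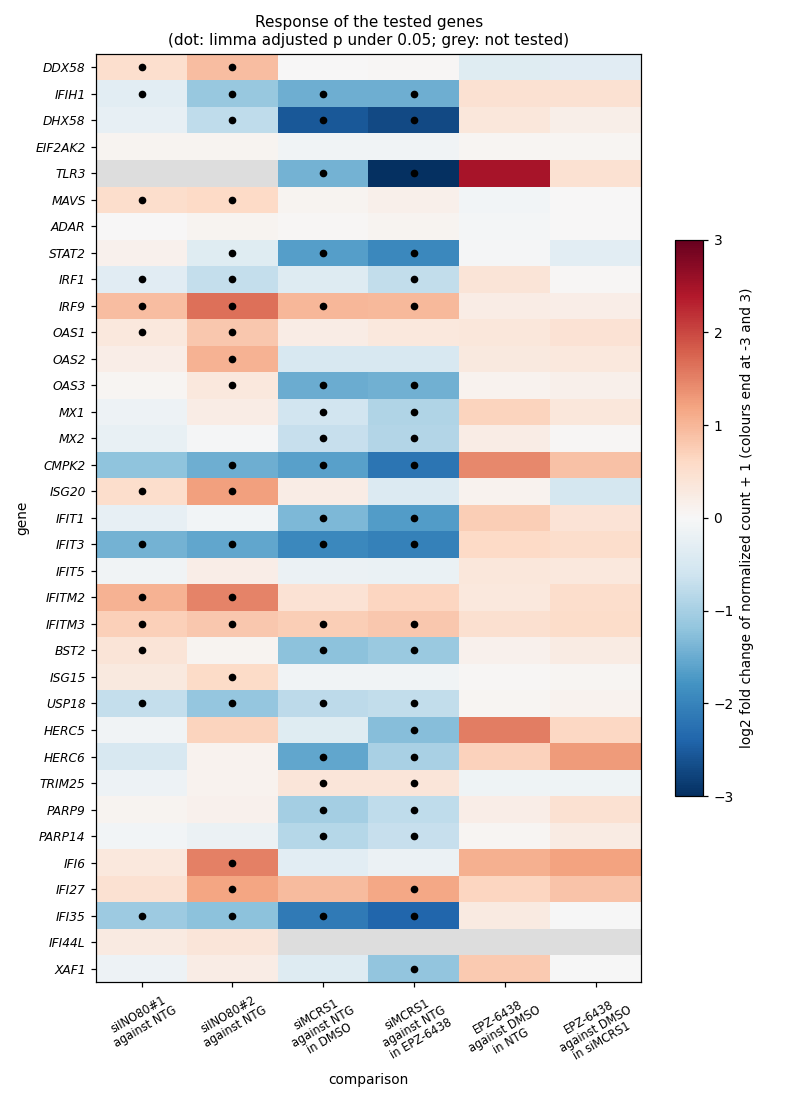
Log2 fold change of normalized count + 1 (colour) for the 35 genes tested in at least 1 experiment (rows) in 6 comparisons (columns); a dot marks limma's adjusted p under 0.05 and grey a gene that was not tested. Both EPZ-6438 columns hold no dot, and the siMCRS1 columns hold 16 and 19 lower calls.

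The cytoplasmic sensors moved apart. DDX58 encodes RIG-I, which binds short double-stranded RNA with a 5′ triphosphate, and IFIH1 encodes MDA5, which binds long double-stranded RNA. DDX58 had 511, 517 and 517 normalized counts in NTG, 729.7, 687 and 770.5 in siINO80#1 and 1015, 881 and 1037 in siINO80#2. The 3 groups did not overlap, with siINO80#2 highest (log2 fold change, as for all values before an adjusted p, 0.50 (adjusted p = 0.00075) with siINO80#1 and 0.92 (adjusted p = 6.9e-06) with siINO80#2, and 0.42 (adjusted p = 0.0054) between them). IFIH1 had 252, 276 and 279 in NTG, 227, 224 and 201 in siINO80#1 and 116, 127 and 124 in siINO80#2. Its groups did not overlap either and ran the other way, with siINO80#2 lowest (log2 fold change -0.31 (adjusted p = 0.034), -1.13 (adjusted p = 8.0e-06) and -0.82 (adjusted p = 0.00058) in the same order). The siINO80#1 call of IFIH1 was lost without NTG replicate B or C or any one siINO80#1 library (adjusted p = 0.054 to 0.13). It was also lost with no filter and with quantile normalization. The levels of DDX58 were 801 and 829 in DMSO with NTG and 831, 806 and 844 with siMCRS1, and the groups overlapped (log2 fold change 0.02 (adjusted p = 0.91)). IFIH1 had 468 and 436 in DMSO with NTG and 206, 143 and 149 with siMCRS1, a fall to 36.7% of the mean (log2 fold change -1.46, standard error 0.19, adjusted p = 0.00019). In EPZ-6438 it had 621, 638 and 595 with NTG and 268 and 186 with siMCRS1 (log2 fold change -1.46 (adjusted p = 0.00013)), so that every siMCRS1 library lay below every NTG library in both treatments.

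DHX58 encodes LGP2, a relative of both helicases that binds RNA but lacks their signaling domain. It had 58.0, 76.0 and 74.9 normalized counts in NTG, 63.2, 59.5 and 53.3 in siINO80#1 and 43.8, 51.3 and 29.3 in siINO80#2. All siINO80#2 libraries lay below NTG (log2 fold change -0.76 (adjusted p = 0.013)), whereas siINO80#1 overlapped NTG (log2 fold change -0.24 (adjusted p = 0.43)). With siMCRS1 it went from 114 and 96.4 to 17.8, 12.1 and 22.9 in DMSO and from 142, 133 and 126 to 35.2 and 10.7 in EPZ-6438 (log2 fold change -2.55, standard error 0.42, adjusted p = 0.00070 in DMSO; -2.71 (adjusted p = 0.00037) in EPZ-6438). The difference between the INO80 and MCRS1 knockdowns was not tested.

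MAVS, the adapter of these sensors, had 3326, 3279.7 and 3289 normalized counts in NTG, 4921, 4588 and 4818 in siINO80#1 and 4991, 4581 and 5339.6 in siINO80#2. Both siRNA groups lay above NTG and overlapped each other (log2 fold change 0.53, standard error 0.07, adjusted p = 0.00017 for siINO80#1 and 0.59 (adjusted p = 4.6e-05) for siINO80#2). In DMSO it had 4671 and 4939.7 with NTG and 5176, 4982 and 5018 with siMCRS1, all of the latter higher by a margin that was not called (0.07 (adjusted p = 0.67)). In EPZ-6438 it had 3715, 5192 and 4957 with NTG and 5166 and 5039.7 with siMCRS1, which overlapped (0.16 (adjusted p = 0.33)). EIF2AK2, the kinase PKR that stops translation when it binds double-stranded RNA, had 1593, 1663 and 1580.2 in NTG, 1748, 1641 and 1725 in siINO80#1 and 1584, 1534 and 2084 in siINO80#2. It had 2990.0 and 3271 in DMSO with NTG, 2802, 2774 and 3189.9 in DMSO with siMCRS1, 3091, 3395 and 3359.9 in EPZ-6438 with NTG and 3066 and 3000.0 in EPZ-6438 with siMCRS1. It was called in no comparison, with log2 fold changes of 0.08, 0.09, -0.10 and -0.11 for the 4 knockdowns (standard error 0.10 in each). The span of EIF2AK2 overlaps that of GPATCH11, so that its reads may be uncertain. Strand and exons were not compared for this or the other overlaps given below.

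ADAR, which edits adenosine to inosine in double-stranded RNA, had 4613, 4362 and 4166 normalized counts in NTG, 4427, 4345 and 4449.6 in siINO80#1 and 4732, 4559 and 4719.9 in siINO80#2. In the drug experiment it had 8285 and 7552 in DMSO with NTG, 7952, 8193 and 8007 in DMSO with siMCRS1, 7139, 7925 and 7835 in EPZ-6438 with NTG and 8089 and 8037 in EPZ-6438 with siMCRS1. No comparison called it, and the knockdowns gave log2 fold changes of 0.01 to 0.09, the one for siMCRS1 in EPZ-6438 turning to -0.16 with rescaling to equal totals and to -0.23 with quantile normalization, which called it lower (adjusted p = 0.047). TLR3, the endosomal receptor of double-stranded RNA, passed the filter in the drug experiment alone. It had 12.3, 10.3 and 10.6 in NTG, 10.7, 10.9 and 9.62 in siINO80#1 and 3.37, 6.89 and 7.56 in siINO80#2, near the level of a few reads, and was not tested there. In DMSO it had 5.74 and 14.3 with NTG and 3.34, 2.20 and 2.86 with siMCRS1, the latter near the floor of 3 reads, which was worth 2.13 to 4.30 normalized counts. TLR3 passed the filter through the EPZ-6438 NTG libraries alone, since its mean over the other drug libraries was 5.26. Its call in DMSO (log2 fold change -1.43 (adjusted p = 0.033)) was lost without the second DMSO NTG library (adjusted p = 0.28) and without either of the last 2 DMSO siMCRS1 libraries. Fold changes of TLR3 depend on the pseudocount.

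IRF9 and STAT2, which act together in ISGF3, went in opposite directions with siINO80#2 and siMCRS1. IRF9, the DNA-binding part, had 312, 299 and 348 normalized counts in NTG, 608, 550.3 and 675 in siINO80#1 and 992, 885 and 1139 in siINO80#2. Each siRNA group lay above NTG and siINO80#2 above siINO80#1 (log2 fold change 0.93, standard error 0.11, adjusted p = 0.00010, against 1.64 (adjusted p = 1.3e-06) for siINO80#2). In DMSO IRF9 had 299.7 and 337 with NTG and 693, 628 and 586 with siMCRS1, and in EPZ-6438 349, 439 and 332 with NTG and 771 and 691 with siMCRS1. Every siMCRS1 library was above every NTG library in both treatments (log2 fold change 0.99, standard error 0.15, adjusted p = 0.00040 in DMSO; 0.98 (adjusted p = 0.00033) in EPZ-6438). STAT2, its partner, had 849, 784 and 903 in NTG, 925, 875 and 972 in siINO80#1 and 697, 682 and 583 in siINO80#2, lower with siINO80#2 alone (log2 fold change 0.13 (adjusted p = 0.28) for siINO80#1 and -0.37 (adjusted p = 0.0051) for siINO80#2, with -0.50 (adjusted p = 0.0036) between the siRNAs). With siMCRS1 STAT2 went from 1095 and 1045 to 364, 258 and 417 in DMSO and from 977, 1127 and 1041 to 322 and 229.9 in EPZ-6438. That left 32.3% and 26.3% of the NTG mean, with a log2 fold change of -1.65 (adjusted p = 0.00012) and -1.94 (adjusted p = 3.2e-05).

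IRF1, a factor that binds ISRE-like sites and is induced by interferon gamma, had 211, 227 and 260.2 normalized counts in NTG, 174, 182 and 191 in siINO80#1 and 138, 137 and 145 in siINO80#2. The 3 groups did not overlap and siINO80#2 was lowest (log2 fold change -0.34 (adjusted p = 0.029) and -0.72 (adjusted p = 0.00027)). The siINO80#1 call was lost without NTG replicate B or C or any one siINO80#1 library (adjusted p = 0.052 to 0.12), and that of siINO80#2 held throughout. The call between the siRNAs (-0.38 (adjusted p = 0.034)) was lost without NTG replicate B, any siINO80#1 library or siINO80#2 replicate A or B (adjusted p = 0.051 to 0.11). IRF1 had 284 and 243 in DMSO with NTG, 200.3, 195 and 206 in DMSO with siMCRS1, 338, 417 and 294 in EPZ-6438 with NTG and 235 and 180.2 in EPZ-6438 with siMCRS1. The fall with siMCRS1 was called in EPZ-6438 (-0.75 (adjusted p = 0.0054)) but not in DMSO (-0.39 (adjusted p = 0.10)), and the EPZ-6438 call was lost without siMCRS1 replicate B (adjusted p = 0.074). The interaction of siMCRS1 and EPZ-6438 was not called for IRF1 (adjusted p = 1.00). IRF7, which amplifies interferon production, was at 0 to 12.3 normalized counts with the INO80 siRNAs and their control and 1.08 to 16.8 in the drug libraries, and was not tested.

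**Figure D2:**
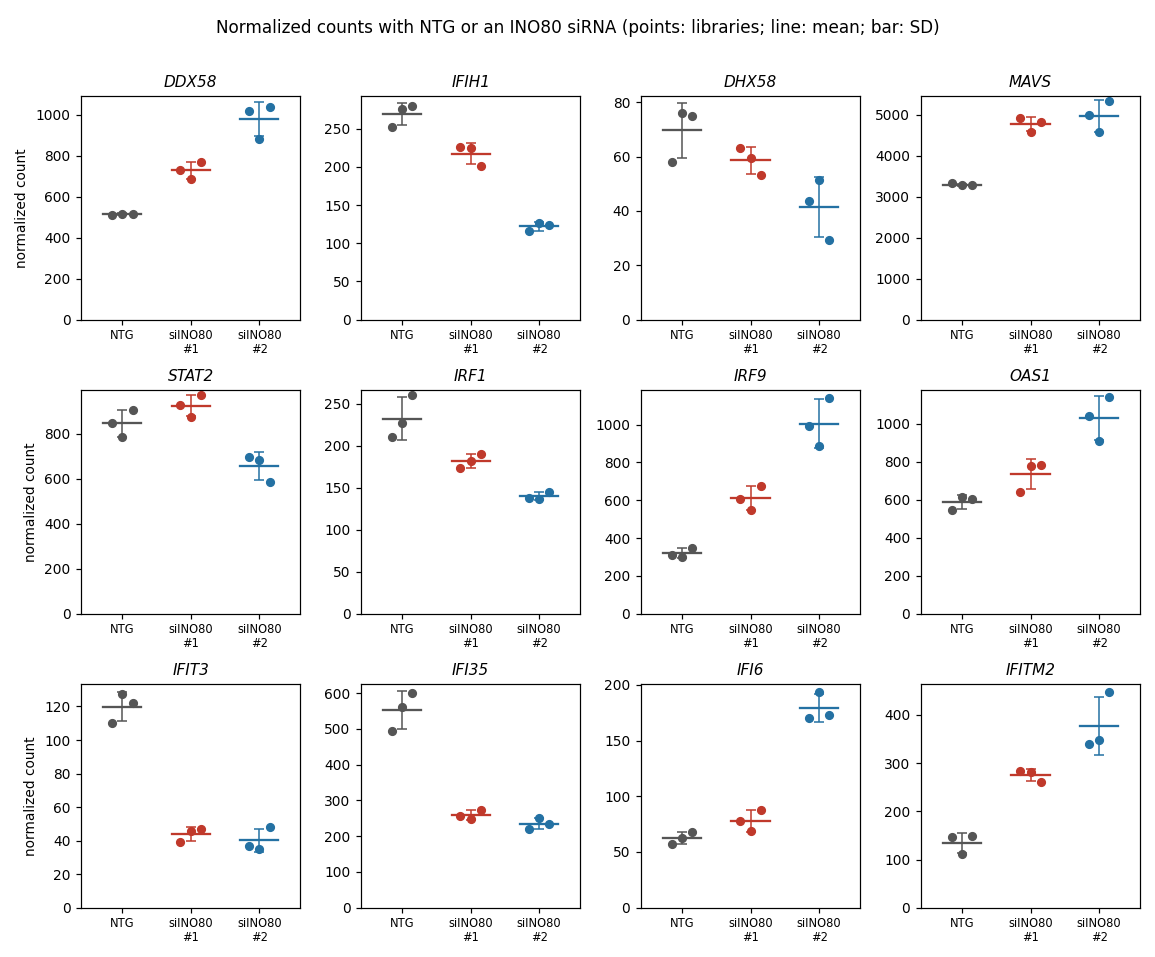
Normalized counts (vertical axes, from 0) of 12 genes in the INO80 experiment with NTG, siINO80#1 or siINO80#2; points are libraries, lines means and bars SD (n = 3 per group). DDX58, MAVS, IRF9 and IFITM2 lie above NTG with both siRNAs, and IFIH1, IRF1, IFIT3 and IFI35 lie below it.

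The OAS proteins make 2′,5′-oligoadenylate, which activates RNase L, and OAS1, OAS2 and OAS3 lie side by side on chromosome 12. OAS1 had 547, 616 and 604 normalized counts in NTG, 641, 776 and 781 in siINO80#1 and 1042, 907 and 1138 in siINO80#2, with no overlap of the groups (log2 fold change 0.31 (adjusted p = 0.039), 0.80 (adjusted p = 0.00010) and, between the siRNAs, 0.49 (adjusted p = 0.0094)). The siINO80#1 call was lost without any one NTG library, siINO80#1 replicate B or C, or siINO80#2 replicate A (adjusted p = 0.052 to 0.13). That call was also lost with no filter and with rescaling to equal totals (adjusted p = 0.054 to 0.11). With siMCRS1, OAS1 levels of 717 to 1234 overlapped the 657 to 978 of NTG, and it was not called. OAS2, at 15.4 to 25.7 in NTG, was called with siINO80#2 (1.05 (adjusted p = 0.0039)) but siMCRS1 gave no call (-0.49 in DMSO and -0.47 in EPZ-6438). Its call between the siRNAs (0.86 (adjusted p = 0.029)) was lost without any siINO80#1 library or siINO80#2 replicate A or C (adjusted p = 0.051 to 0.094).

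OAS3, the longest of these genes' products, was the OAS gene called with siMCRS1. It had 2294 and 2242 normalized counts in DMSO with NTG and 884, 726 and 811 with siMCRS1, and 2145, 2833 and 2335 in EPZ-6438 with NTG and 1064 and 740.2 with siMCRS1. The siMCRS1 libraries were all lower (log2 fold change -1.49, standard error 0.17, adjusted p = 7.6e-05 in DMSO; -1.45 (adjusted p = 5.5e-05) in EPZ-6438). With siINO80#2 OAS3 was slightly higher (0.31 (adjusted p = 0.018)), a call lost without NTG replicate A or C or siINO80#2 replicate A (adjusted p = 0.052 to 0.056). Rescaling to equal totals lost this call too (adjusted p = 0.078). OASL was below the filter, at 1.98 to 11.9 and 0.957 to 4.77 normalized counts. The quantifier shares reads among similar transcripts, so the split within the OAS, MX, IFIT and IFITM families is uncertain.

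MX1 and MX2 are dynamin-like GTPases that trap viral nucleocapsids. Neither was called with an INO80 siRNA, and both were lower with siMCRS1. MX2 went from 1113 and 983 normalized counts to 730.0, 600.3 and 617 in DMSO and from 1279, 1204 and 1195 to 767 and 573 in EPZ-6438 (-0.69 (adjusted p = 0.0025) and -0.88 (adjusted p = 0.00046)). MX1 went from 155 and 184 to 114, 108 and 120.3 in DMSO, and its call there (-0.57 (adjusted p = 0.049)) was lost without any one of the DMSO libraries or of the EPZ-6438 NTG libraries (adjusted p = 0.060 to 0.24). In EPZ-6438 MX1 had 282, 255 and 268 with NTG and 186 and 110.1 with siMCRS1 (-0.90 (adjusted p = 0.0046)), a call lost without EPZ-6438 siMCRS1 replicate B (adjusted p = 0.071). 

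CMPK2, a mitochondrial nucleotide kinase, and RSAD2, which encodes viperin, have overlapping spans on chromosome 2, so that their reads may be uncertain. CMPK2 had 11.2, 20.5 and 32.6 normalized counts in NTG and 8.97, 4.60 and 6.61 in siINO80#2 (-1.46 (adjusted p = 0.034), lost without NTG replicate B or siINO80#2 replicate B or C, adjusted p = 0.061 to 0.094). There it passed the filter through NTG alone (mean over the other libraries 7.92), and without NTG replicate C it was not tested. With siMCRS1 it went from 28.7 and 42.0 to 11.1, 12.1 and 8.59 in DMSO (-1.63 (adjusted p = 0.0057), 0.056 without the second DMSO NTG library). In EPZ-6438 it went from 102, 71.0 and 121 to 30.4 and 13.3 (-2.19 (adjusted p = 0.00082)). RSAD2 was below the filter at 0 to 10.4 and 0 to 8.41 normalized counts. ISG20, an RNA exonuclease, had 152, 125 and 162 in NTG, 187, 217 and 224 in siINO80#1 and 362, 324 and 349.5 in siINO80#2. Its 3 groups did not overlap (0.52 (adjusted p = 0.0068), 1.24 (adjusted p = 1.4e-05) and, between the siRNAs, 0.72 (adjusted p = 0.0029)), while with siMCRS1 it was not called (0.22 in DMSO and -0.41 in EPZ-6438).

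The IFIT proteins bind viral RNA that lacks the host cap, and their genes lie together on chromosome 10. IFIT3, a scaffold for IFIT1, had 110.4, 127 and 122 normalized counts in NTG, 39.3, 45.6 and 47.2 in siINO80#1 and 37, 35.2 and 48.2 in siINO80#2. Both siRNA groups were far below NTG and overlapped each other (log2 fold change -1.43, standard error 0.17, adjusted p = 0.00010 for siINO80#1 and -1.57 (adjusted p = 2.8e-05) for siINO80#2), leaving 36.8% and 33.5% of the NTG mean. In DMSO it had 144 and 165 with NTG and 39.0, 33.0 and 47.3 with siMCRS1, and in EPZ-6438 262, 207 and 239.7 and 71.2 and 45.3. Every siMCRS1 library was lower (-1.94 (adjusted p = 0.00015) and -2.03 (adjusted p = 7.4e-05)). IFIT1, whose 2 ISRE matches lie 116 and 103 bases before its start, had 84.8, 70.8 and 113 in NTG, 69.2, 80.3 and 74.3 in siINO80#1 and 71.8, 97.3 and 80.3 in siINO80#2, and was not called. With siMCRS1 IFIT1 went from 146 and 129 to 61.2, 35.2 and 70.2 in DMSO and from 276, 178 and 248 to 105 and 47.9 in EPZ-6438 (-1.34 (adjusted p = 0.011) and -1.68 (adjusted p = 0.0026)), and the DMSO call was lost without the first DMSO NTG library (adjusted p = 0.073). IFIT5, at 179 to 239 and 439.7 to 716 normalized counts, was called nowhere. IFIT2 was below the filter, at 0 to 6.72 and 2.23 to 25.9. The span of LIPA overlaps all 4 IFIT genes.

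**Figure D3:**
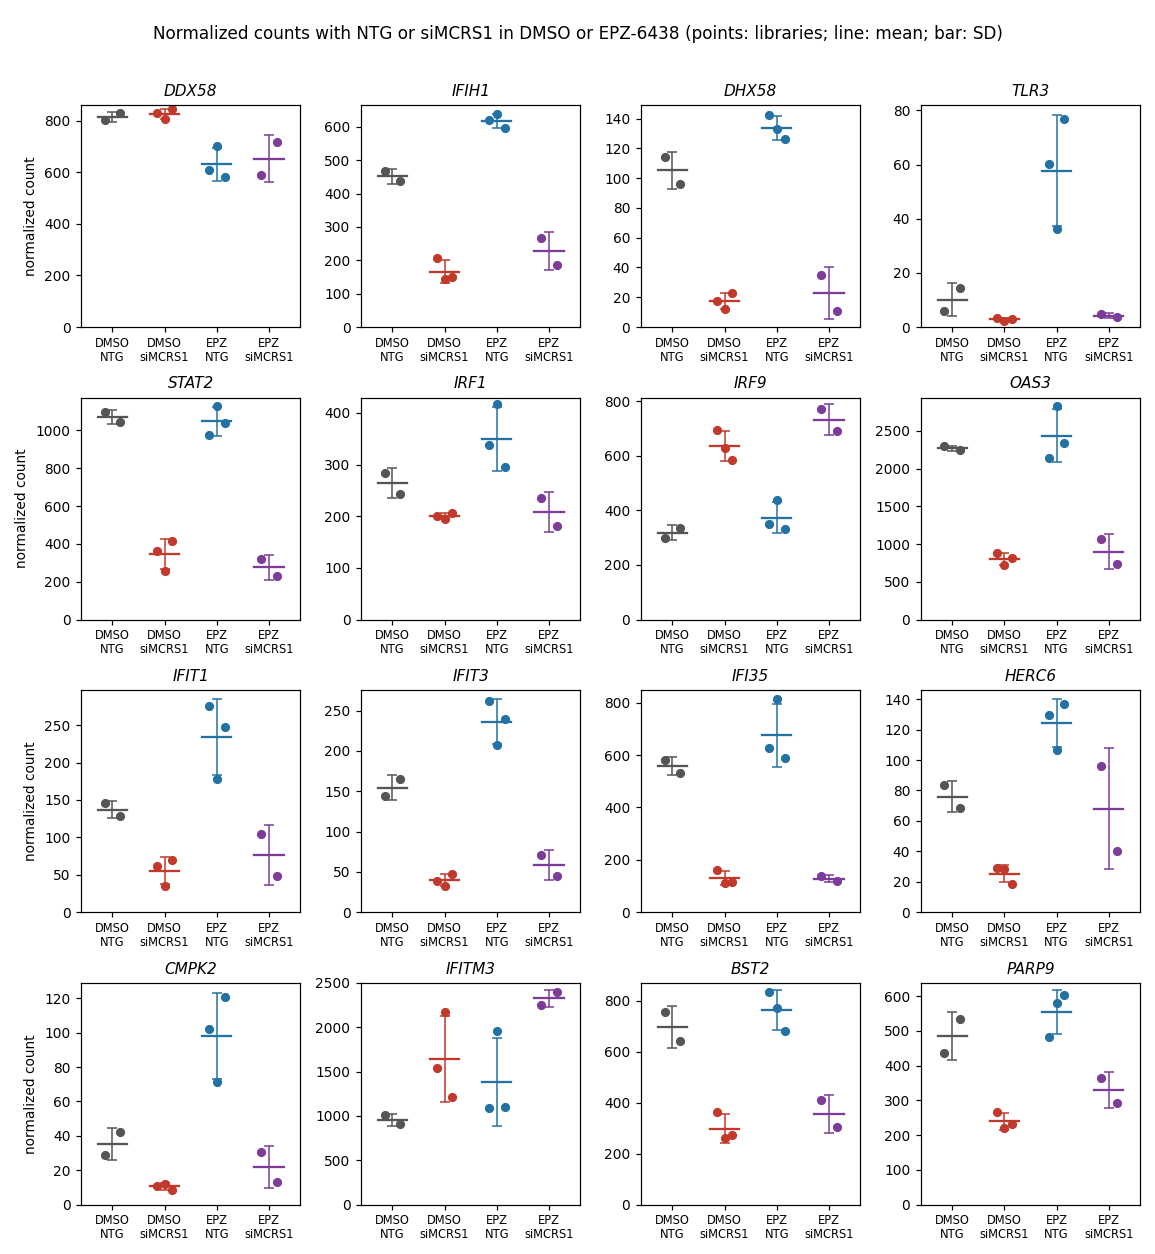
Normalized counts (vertical axes, from 0) of 16 genes in the drug experiment with NTG or siMCRS1 in DMSO or EPZ-6438 (EPZ); points are libraries, lines means and bars SD (n = 2 or 3 per group). For IFIH1, DHX58, STAT2, OAS3, IFIT3 and IFI35 every siMCRS1 library lies below every NTG library, IRF9 lies the other way, and the EPZ-6438 NTG libraries of TLR3 and CMPK2 are the highest.

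The IFITM proteins sit in membranes and block the fusion of viruses. IFITM2 had 146, 111 and 148 normalized counts in NTG, 284, 281 and 261 in siINO80#1 and 339, 348 and 447 in siINO80#2, with NTG lowest and siINO80#2 highest (log2 fold change 1.03, standard error 0.14, adjusted p = 0.00025, against 1.48 (adjusted p = 1.2e-05) for siINO80#2). The call between the siRNAs (0.45 (adjusted p = 0.048)) was lost without NTG replicate A or C, any siINO80#1 library or siINO80#2 replicate A or C (adjusted p = 0.056 to 0.14). IFITM2 was not called with siMCRS1. In EPZ-6438 it was called higher with quantile normalization and without the second EPZ-6438 NTG library. IFITM3 had 891, 811 and 824 in NTG, 1439, 1246 and 1470.1 in siINO80#1 and 1384, 1464 and 1583 in siINO80#2, and the siRNA groups overlapped each other above NTG (0.72 (adjusted p = 9.1e-05) and 0.81 (adjusted p = 2.0e-05)). With siMCRS1, IFITM3 had 1545, 2168 and 1219 against 1007 and 909 in DMSO and 2257 and 2396 against 1091, 1961 and 1103 in EPZ-6438. All siMCRS1 libraries were higher in both treatments (0.74 (adjusted p = 0.040) and 0.80 (adjusted p = 0.025)). The DMSO call was lost without either DMSO NTG library, either of the first 2 DMSO siMCRS1 libraries or either EPZ-6438 siMCRS1 library (adjusted p = 0.050 to 0.16). The EPZ-6438 call was lost without the first or the third EPZ-6438 NTG library or either siMCRS1 library there. Both calls were lost with rescaling to equal totals, and the DMSO call also with no filter. IFITM1, their neighbour on chromosome 11, was at 0 to 8.42 and 0 to 7.71 normalized counts, below the filter. With no filter it was called higher with siINO80#2 and with siMCRS1 in DMSO.

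BST2, which encodes tetherin and holds budding virus at the surface, was called higher with siINO80#1 but not with siINO80#2, and lower with siMCRS1. It had 524, 496 and 548 normalized counts in NTG and 728, 646 and 687 in siINO80#1 (0.39 (adjusted p = 0.022), lost without NTG replicate A or B or siINO80#1 replicate A or C, adjusted p = 0.054 to 0.074). The siINO80#1 call was also lost with rescaling to equal totals (adjusted p = 0.11). With siINO80#2 the log2 fold change of BST2 was 0.08. In DMSO it went from 756 and 640.4 to 363, 259.9 and 274 with siMCRS1, and in EPZ-6438 from 836, 772 and 681 to 409 and 304 (-1.23 (adjusted p = 0.00038) and -1.11 (adjusted p = 0.00054)).

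ISG15 is a ubiquitin-like protein that HERC5 attaches to newly made proteins and that USP18 removes. USP18, which also restrains the interferon receptor, had 418, 349 and 469 normalized counts in NTG, 289.7, 223 and 233 in siINO80#1 and 182, 211 and 155 in siINO80#2. Both siRNA groups were below NTG (-0.73 (adjusted p = 0.0034) and -1.17 (adjusted p = 9.1e-05)). With siMCRS1 it went from 888 and 621 to 558, 401 and 355 in DMSO and from 888, 762 and 680.2 to 568 and 374 in EPZ-6438. These calls (-0.79 (adjusted p = 0.019) and -0.74 (adjusted p = 0.022)) were lost in DMSO without the first DMSO NTG library or either of the last 2 DMSO siMCRS1 libraries (adjusted p = 0.058 to 0.19). In EPZ-6438 the call was lost without EPZ-6438 siMCRS1 replicate B or the first EPZ-6438 NTG library, and with quantile normalization. ISG15 itself was at 107 to 247 and 145 to 189.7 normalized counts. Its single call, with siINO80#2 (0.57 (adjusted p = 0.040)), was lost without any one of 7 of the 9 libraries, NTG replicate B and siINO80#2 replicate C being the exceptions (adjusted p = 0.051 to 0.14). This call was also lost with no filter, with rescaling to equal totals and with only the groups compared (adjusted p = 0.054 to 0.14).

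HERC6, a relative of HERC5 beside it on chromosome 4, had 27.9, 43.1 and 45.1 normalized counts in NTG, 26.2, 21.8 and 33.2 in siINO80#1 and 41.5, 40.6 and 40.6 in siINO80#2 and was not called there. With siMCRS1 it went from 83.3 and 68.7 to 28.9, 28.6 and 18.6 in DMSO (-1.56 (adjusted p = 0.0041)) and from 129, 107 and 137 to 96.0 and 39.9 in EPZ-6438 (-0.98 (adjusted p = 0.036)). The EPZ-6438 call was lost without replicate B of EPZ-6438 siMCRS1 (adjusted p = 0.43) or the first or the third EPZ-6438 NTG library. HERC5 was called in EPZ-6438 alone (-1.29 (adjusted p = 0.038)), and that was lost without the same replicate B, the second DMSO siMCRS1 library, or the first or the third EPZ-6438 NTG library (adjusted p = 0.051 to 0.48). TRIM25, the ubiquitin ligase of RIG-I, was at 5665 and 5292 in DMSO with NTG and 6837, 7317 and 7064 with siMCRS1. Its siMCRS1 calls (0.37 (adjusted p = 0.0048) and 0.36 (adjusted p = 0.0046)) held without any library but were lost with rescaling to equal totals and with quantile normalization (adjusted p = 0.20 to 0.62). Between the INO80 siRNAs it was called (0.27 (adjusted p = 0.026)) but not without any one siINO80#1 library or siINO80#2 replicate A (adjusted p = 0.056 to 0.098).

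PARP9 and PARP14, ADP-ribosyltransferases of the antiviral response, were lower with siMCRS1 and not called with either INO80 siRNA. PARP9 went from 436 and 534 normalized counts to 267, 221 and 232 in DMSO and from 484, 580.4 and 602 to 366 and 293 in EPZ-6438 (-1.01 (adjusted p = 0.00064) and -0.76 (adjusted p = 0.0028)). PARP14 went from 1458 and 1902 to 816, 934 and 1007 and from 1469.5, 1880.5 and 1909 to 1133 and 1030.5 (-0.86 (adjusted p = 0.0012) and -0.69 (adjusted p = 0.0035)). The span of PARP9 overlaps that of DTX3L, its partner, and their reads may be uncertain.

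IFI35, an interferon-induced leucine zipper protein, was the gene with the lowest adjusted p of the group with siINO80#1. It had 495, 563 and 600.0 normalized counts in NTG, 255, 249 and 275 in siINO80#1 and 219.9, 250.4 and 235 in siINO80#2. Both siRNA groups were below every NTG library and overlapped each other (log2 fold change -1.08, standard error 0.10, adjusted p = 1.9e-05 for siINO80#1 and -1.23 (adjusted p = 4.0e-06) for siINO80#2). In DMSO it had 581 and 533 with NTG and 161, 112 and 116 with siMCRS1, and in EPZ-6438 626, 813 and 588 and 138 and 118. That left 23.3% and 18.9% of the NTG mean (log2 fold change -2.11, standard error 0.20, adjusted p = 3.3e-05 in DMSO; -2.38 (adjusted p = 1.1e-05) in EPZ-6438). IFI6, a small protein of mitochondria and endoplasmic reticulum, had 56.9, 62.6 and 68.2 in NTG, 77.5, 68.4 and 87.5 in siINO80#1 and 171, 194 and 173 in siINO80#2. It was called with siINO80#2 alone, and the INO80 siRNAs themselves differed (0.31 (adjusted p = 0.11) for siINO80#1, 1.5 (adjusted p = 1.1e-05) for siINO80#2 and 1.20 (adjusted p = 0.00047) between them). With siMCRS1 IFI6 was not called.

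IFI27, at 11.3 to 19.0 normalized counts in NTG, was called higher with siINO80#2 (1.17 (adjusted p = 0.0033)) and with siMCRS1 in EPZ-6438 (1.17 (adjusted p = 0.023)). The latter was lost without EPZ-6438 siMCRS1 replicate A or the second EPZ-6438 NTG library. It was also lost with no filter and with rescaling to equal totals (adjusted p = 0.053 to 0.064). XAF1, a pro-apoptotic factor, was lower with siMCRS1 in EPZ-6438, from 161, 187 and 187 to 78.4 and 76.3 (-1.19 (adjusted p = 0.0050)), and not called elsewhere. IFI44L was tested in the INO80 experiment alone and not called, and IFI44 was at 0 in every INO80 library and at 0 to 2.15 in the drug libraries. Of the 41 genes, 31 were called in at least 1 comparison, which is 88.6% of the 35 tested, where 76.0% of all 14812 tested genes were. The other 10 were ADAR, EIF2AK2 and IFIT5, tested in both experiments, IFI44L, tested in 1, and IRF7, OASL, RSAD2, IFIT2, IFITM1 and IFI44, tested in neither.

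The INO80 and MCRS1 knockdowns share no library, so their calls were set side by side over the 33 genes tested in both experiments. Of 8 genes lower with siINO80#2, 7 were also lower with siMCRS1 in DMSO (87.5%, and 46.7% of the 15 lower with siMCRS1), where over all 13534 genes tested in both the shares were 55.2% and 64.1%. CMPK2, which passed the INO80 filter through NTG alone, is among both the 8 and the 7, and that filter favours a lower call. Of 12 higher with siINO80#2, 2 had that call with siMCRS1 in DMSO too (16.7%, and 66.7% of the 3), where over all genes the shares were 57.0% and 64.6%. OAS3 was called higher with siINO80#2 and lower with siMCRS1, and BST2 higher with siINO80#1 and lower with siMCRS1. OAS3 was not called with siINO80#1, nor BST2 with siINO80#2. These are descriptions, since the counts are small and the genes are not independent.

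EPZ-6438 alone called none of the genes. In NTG libraries 0 of 34 passed limma's threshold, where 0.384% of all genes did, 10 had an unadjusted p under 0.05, and edgeR called 0. In siMCRS1 libraries 0 passed, where 0.0908% of all genes did, 10 had an unadjusted p under 0.05, and edgeR called 0. The interaction of siMCRS1 and EPZ-6438 called 0, where 0% of all genes were called, 1 had an unadjusted p under 0.05, and edgeR called 0. The levels nevertheless leaned upward in NTG, with a median log2 fold change of 0.31, where that of all genes was -0.03. Every EPZ-6438 library lay above every DMSO library for 19 of the 34 (55.9%), against 16.4% of all tested genes, and below for 2, against 17.1%. TLR3 is one of the 19 and passed the filter through the EPZ-6438 NTG libraries alone, which favours that order. Without TLR3 the median over the remaining 33 genes was 0.29. The 9 hepatocyte markers had a median of 0.44 in NTG, with 4 wholly above, and their part in the lean was not tested. In siMCRS1 libraries the median was 0.25, which became 0.01 without EPZ-6438 siMCRS1 replicate A and 0.44 without replicate B, and 11 lay wholly above, against 11.9% of all genes, and 3 wholly below, against 13.3%.

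TLR3 had the largest of these differences. It had 5.74 and 14.3 normalized counts in DMSO with NTG and 60.3, 36.2 and 76.7 in EPZ-6438 with NTG, where every EPZ-6438 library was higher (log2 fold change 2.47, standard error 0.49, adjusted p = 0.068). These 3 libraries are also the control of siMCRS1 in EPZ-6438. With siMCRS1 in EPZ-6438 it had 4.80 and 3.55, near the floor. The difference between them (-3.45 (adjusted p = 0.00020)) starts from the group through which the gene passed the filter and is given as a description. With a pseudocount of 5 the EPZ-6438 effect in NTG was 2.07 (adjusted p = 0.036), and without the first DMSO NTG library it was 1.88. The EPZ-6438 effect on TLR3 in NTG also rests on the group through which the gene passed the filter. Its adjusted p, under any setting, is therefore no independent test, and the values are given as a description. CMPK2, chosen here after its values were seen, had 28.7 and 42.0 in DMSO with NTG and 102, 71.0 and 121 in EPZ-6438 with NTG, a difference of the same direction that did not pass (1.44 (adjusted p = 0.12)). The sensor DDX58 went the other way, from 801 and 829 to 609, 703 and 581 normalized counts, also not called (-0.37 (adjusted p = 0.18)). IFIH1 had 468 and 436 and 621, 638 and 595 (0.45 (adjusted p = 0.27)), with each EPZ-6438 library above each DMSO library.

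Of the other genes of the pathway, the 9 interferon ligands listed were at no more than 1 read in any library and none was tested, so their levels were not detectable at this depth. Of 10 receptors and kinases, 4 were higher and 1 lower with siINO80#1, 7 and 2 with siINO80#2, 5 and 2 with siMCRS1 in DMSO, and 6 and 2 in EPZ-6438. Of 16 negative regulators, 6 were higher and 2 lower with siINO80#1, 4 and 3 with siINO80#2, 7 and 4 with siMCRS1 in DMSO, and 8 and 4 in EPZ-6438. Of the genes that signal below the sensors, 5 and 0 of 21, 9 and 1 of 21, 5 and 2 of 19, and 6 and 2 of 19 were higher and lower in the same order. Of all genes, 41.6%, 55.0%, 47.7% and 53.7% were called in these comparisons, split about evenly by direction. SOCS3, an inhibitor of JAK kinases, had 25.7, 28.7 and 21.1 normalized counts in NTG, 58.4, 81.3 and 47.2 in siINO80#1 and 78.5, 85.0 and 76.5 in siINO80#2 (1.25 (adjusted p = 0.0011) and 1.64 (adjusted p = 9.7e-05)). SOCS1, its relative, went the other way, from 188, 211 and 306 to 65.6, 110.1 and 136 and 34.8, 84.2 and 60.5 (-1.20 (adjusted p = 0.016) and -2.01 (adjusted p = 0.00050)).

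The calls among 42 further interferon-stimulated genes were mostly lower with siMCRS1. Of 35 tested, 1 was higher and 20 lower in DMSO and 4 and 21 in EPZ-6438, with a median log2 fold change of -0.73 and -0.58, and with the INO80 siRNAs 3 were higher and 12 lower (siINO80#1) and 10 and 13 (siINO80#2) of 34. Of all genes, 24.6% and 26.9% were lower with siMCRS1 in DMSO and EPZ-6438, and 20.8% and 28.4% with siINO80#1 and siINO80#2. TNFSF10, which encodes the death ligand TRAIL, was lower in all 4 knockdowns. It had 213, 181 and 306 normalized counts in NTG, 40.5, 39.7 and 42.0 in siINO80#1 and 19.1, 28.3 and 39.7 in siINO80#2 (-2.45 (adjusted p = 4.9e-05) and -2.99 (adjusted p = 6.4e-06)), and fell from 239 and 179 to 54.5, 34.1 and 22.9 with siMCRS1 in DMSO (-2.53 (adjusted p = 0.00047)). UBA7, the enzyme that activates ISG15, fell from 148 and 142 to 30.05, 6.61 and 24.4 normalized counts with siMCRS1 in DMSO (log2 fold change -3.01, standard error 0.50, adjusted p = 0.00070). PARP10, another ADP-ribosyltransferase, was lower with siINO80#2 than with siINO80#1, at 127, 146 and 104 against 227, 219 and 232 (-0.85 (adjusted p = 0.0026)). SP110, a nuclear body protein, was higher, at 569, 495 and 576 against 289.7, 329 and 269 (0.88 (adjusted p = 0.00035)).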

How the data were processed

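A total of 19 HepG2 mRNA-seq libraries was analysed, 9 from the INO80 experiment and 10 from the drug experiment. For each experiment the authors deposited a signal that is never negative, in which reads are divided by a size factor of the library. The submitters' processing notes name kallisto, DESeq2 and GRCh38. Whether counting used the strand is not given in the sources used here. All values (100%) were whole multiples (tolerance 0.001) of a step of their library, which gives back reads that may be rounded estimates. The floor of 3 reads equals 2.30 to 3.58 normalized counts for INO80 libraries and 2.13 to 4.30 for drug libraries, and allows for counting error alone. Counts of replicate libraries differed beyond sampling noise (chi-square over its degrees of freedom 9.45 to 121). The labels do not say that replicates are separate cultures, so p-values measure the spread between libraries, which may be technical. Groups came from the sample labels. Replicate letters were taken to pair NTG with siINO80#1, from the data and not from a stated batch: deviations from the group means correlated at 0.25, 0.26 and 0.14 for letters A, B and C. Over the whole INO80 experiment, pairs with different letters correlated at -0.25 to 0.10. Deviations cancel within a group, so positive same-letter values bring negative values for other pairs. The main fit did not use this pairing, which was run as an alternative.

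Tests used limma 3.58.1 in R 4.3.3 on log2(value + 1), with a mean-variance trend, 1 fit per experiment and a minimum mean of 10, and Benjamini-Hochberg adjustment over all tested genes. Such fold changes understate the change of low genes. The fit was tested on simulated data. Alternatives were edgeR 4.0.16 (quasi-likelihood test) on the recovered reads, pseudocounts of 0.5 and 5, no filter, rescaling to equal totals, quantile normalization, only the groups compared, a replicate block, each library left out and, chosen after seeing the data, the counts without genes that passed the filter through 1 group. Python 3.11.15, numpy 2.4.6, pandas 2.3.3 and matplotlib 3.10.9 made tables and figures. Promoters and positions are from RefSeq (GRCh38.p14). All 41 genes matched, DDX58 through the older symbol of RIGI.

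The genes and lists were chosen with earlier results of these data known. Values by library are given for sensors, adapter and factors, except IRF7, given as a range, and DDX58 in EPZ-6438 with siMCRS1. They are also given for up to 3 other genes per comparison, in the experiment of that comparison. These had the largest called change, a mean of at least 50 and no overlap of the groups. Of the further lists, up to 2 such genes per comparison are named. Other genes of the 41 were described after their values were seen.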

Additional observations from a re-analysis of the deposited data

How the results depend on the processing

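Left-out libraries gave 9 to 14 calls for siINO80#1 against NTG, 17 to 20 for siINO80#2, 7 to 13 for siINO80#2 against siINO80#1, 15 to 19 for siMCRS1 in DMSO, 17 to 23 for siMCRS1 in EPZ-6438, and 0 for EPZ-6438 in NTG, EPZ-6438 in siMCRS1 and the interaction. With a pseudocount of 5, EPZ-6438 in NTG called 1 gene, TLR3, in place of 0, and TLR3 passed the filter through the EPZ-6438 NTG libraries alone. With quantile normalization the log2 fold change of ADAR for siMCRS1 in EPZ-6438 was -0.23 in place of 0.08; the cause was not tested. Where leaving out a library left 1 in a group, that library was assumed to vary like the other groups. Of 135 counts of calls under an alternative other than the one added after seeing the data, 131 stayed within 1.5 times the reported count. Those of EPZ-6438 and of the interaction are among the 135 and were 0, apart from the TLR3 call above, so they add little to this figure. Under no filter the 5 knockdown comparisons gave 10, 20, 8, 17 and 21 calls in the order above, and edgeR gave 13, 20, 11, 18 and 21. With edgeR the calls of MX1 for siMCRS1 in DMSO and of HERC5 and HERC6 in EPZ-6438 were lost. These were also lost with no filter and with quantile normalization. The siINO80#1 call of IRF1 was lost under both of the latter, its EPZ-6438 call with quantile normalization, and the ISG15 call with no filter. Between the INO80 siRNAs, no filter lost the calls of IFITM2, IRF1 and OAS2, and rescaling to equal totals lost those of IFITM2 and TRIM25. Rescaling to equal totals moved the median of all genes by -0.08 for siINO80#1 and -0.11 for siINO80#2, with 6 genes higher and 7 lower for siINO80#1 and 10 higher and 9 lower for siINO80#2.

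With the replicate letter as a block, 13, 20 and 11 genes were called for siINO80#1, siINO80#2 and siINO80#2 against siINO80#1, as without it, and the block changed no call on any of the 41 genes. Over all genes the count for siINO80#1 went from 5833 to 6327. For siINO80#2 against either other group, same-letter libraries did not all correlate over 0.1 (-0.08 to 0.13), so there the letters were not taken to pair the libraries. For the drug experiment, no paired analysis was possible because, apart from EPZ-6438 with siMCRS1, the columns carry numbers where the labels carry letters. Depth limits the 7 genes per experiment below the filter, which were not tested in the main fit. With no filter, IFITM1 among them was called higher with siINO80#2 and with siMCRS1 in DMSO, at values near the floor.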
